A study of Mus musculus with 12 samples.

Results

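The mitosis genes are 38 genes whose products run cell division from entry into mitosis to the separation of the daughter cells, and they were taken as a list of gene symbols chosen with earlier results of these data known. All 38 symbols were found among the 55421 named entries (55862 entries in all) of the deposited expression table, and 37 passed the filter for testing, 1 FPKM or more in at least 3 of the 12 libraries. Each of those 37 also reached 1 FPKM in 3 or more libraries outside the group in which most of them were highest, so none was tested through that group alone. RNA sequencing covered 4 groups of 3 libraries from C57BL/6 mouse brain, for which the labels name no genetic change. AST are astrocytes at 0 days of incubation (the negative control), and A-iSCs are astrocytes induced in 3D cell spheres, taken after 5 days. P56-NSC and P0-NSC are brain-derived cells that served as positive controls, and P56 and P0 are read here as postnatal days 56 and 0 of the mice, an age that stands only in the titles. Their titles say NSC and the protocol says NPC (neural progenitor cells), and the labels give neither the way the cells were isolated nor whether the 3 libraries of a group were separate cultures or animals. The p-values therefore rest on the spread among 3 libraries a group, and that spread may be technical.

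Mitosis is driven by CDK1 bound to A- and B-type cyclins, together with the Polo and Aurora kinases. Kinetochores then attach chromosomes to the spindle, the checkpoint holds the anaphase-promoting complex back until attachment is complete, and a contractile ring divides the cell. Most of these genes are transcribed late in the cell cycle, so their RNA is low in resting cells and is widely read as a sign of dividing cells, and adult neural stem cells and mature astrocytes divide rarely in the brain while cultured astrocytes and newborn progenitors divide more. In bulk RNA, fewer dividing cells and less of a transcript per cell cannot be told apart.

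Late cell cycle promoters are known for a pair of elements, the cell cycle genes homology region (CHR, searched as TTTGAA) and the CCAAT box bound by NF-Y (searched as CCAAT), and both were counted on both strands. CCAAT and TTTGAA can share bases, and 1 window, that of Cdca8, holds a pair that does. Windows from 250 bases before to 50 bases after the transcription start, from RefSeq on GRCm38.p6, were matched for 32 of the 38 genes (34 windows, since Prc1 and Ect2 have 2 overlapping windows each). Kif20a, Tpx2, Aurkb, Ccna2, Incenp and Spc24 had no window in that table. A CHR match stood in 27 of 34 windows (79.4%), against 17.9% of all 32851 windows of the same length. A CCAAT match also stood in 27 of 34 (79.4%), against 37.4% of all windows, and both motifs stood together in 24 (70.6%), against 6.95%. The TATA box letters (TATAAA) were in 1 of 34 windows (2.94%), against 13.6% of all. Counted once per place in the genome, there were 31 CHR matches, of which 27 were centred within 100 bases of a start and 24 read in the direction of transcription. By gene, 25 of 32 had a CHR match, 25 a CCAAT match, 22 both and 4 neither (Birc5, Nuf2, Nusap1 and Pttg1). A match is a description of letters, and a window without one says nothing about a factor. These windows are shown because Plk1, Cdc20 and Ccnb2 follow the expression pattern common to most of the group, whereas Pttg1, Anln and Nuf2 depart from it. Birc5 and Nusap1, with neither motif, follow the common pattern. Pttg1, Anln and Nuf2 have no CCAAT match, and Ndc80 and Kif2c, which follow the common pattern, have none either. Kif11, the other gene that departs, has 1 match of each kind. It was below 1 FPKM in every library, and its expression was not tested. Whether the motifs go with the expression pattern was not tested. Capitals mark CHR and CCAAT matches on either strand.
Plk1: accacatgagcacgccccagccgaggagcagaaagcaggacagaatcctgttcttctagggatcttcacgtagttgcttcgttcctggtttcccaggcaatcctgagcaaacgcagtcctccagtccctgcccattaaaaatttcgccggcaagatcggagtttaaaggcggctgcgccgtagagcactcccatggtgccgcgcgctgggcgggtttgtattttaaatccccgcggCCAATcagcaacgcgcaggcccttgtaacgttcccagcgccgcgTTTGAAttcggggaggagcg
Cdc20: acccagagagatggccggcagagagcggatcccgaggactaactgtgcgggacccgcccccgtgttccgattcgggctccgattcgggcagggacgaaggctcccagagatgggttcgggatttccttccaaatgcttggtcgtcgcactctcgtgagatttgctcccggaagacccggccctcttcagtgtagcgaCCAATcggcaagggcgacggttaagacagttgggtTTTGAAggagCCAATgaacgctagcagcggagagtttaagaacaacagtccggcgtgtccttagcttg
Ccnb2: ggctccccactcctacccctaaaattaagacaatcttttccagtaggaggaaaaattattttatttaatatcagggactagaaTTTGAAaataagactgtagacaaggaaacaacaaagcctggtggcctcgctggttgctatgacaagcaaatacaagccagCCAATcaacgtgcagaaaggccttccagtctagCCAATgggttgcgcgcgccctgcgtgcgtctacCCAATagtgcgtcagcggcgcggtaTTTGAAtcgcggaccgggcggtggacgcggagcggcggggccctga
Pttg1: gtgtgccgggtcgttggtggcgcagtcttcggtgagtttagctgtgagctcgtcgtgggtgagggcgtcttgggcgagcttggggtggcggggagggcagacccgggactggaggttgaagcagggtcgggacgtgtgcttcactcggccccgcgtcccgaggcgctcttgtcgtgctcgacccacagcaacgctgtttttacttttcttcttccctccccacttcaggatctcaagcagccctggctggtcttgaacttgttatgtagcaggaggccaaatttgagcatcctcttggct
Anln: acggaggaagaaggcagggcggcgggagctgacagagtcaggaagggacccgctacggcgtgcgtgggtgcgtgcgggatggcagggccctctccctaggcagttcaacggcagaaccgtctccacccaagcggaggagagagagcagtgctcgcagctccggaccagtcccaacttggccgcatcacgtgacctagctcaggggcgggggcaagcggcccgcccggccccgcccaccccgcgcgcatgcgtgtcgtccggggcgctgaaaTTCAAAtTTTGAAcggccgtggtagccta
Nuf2: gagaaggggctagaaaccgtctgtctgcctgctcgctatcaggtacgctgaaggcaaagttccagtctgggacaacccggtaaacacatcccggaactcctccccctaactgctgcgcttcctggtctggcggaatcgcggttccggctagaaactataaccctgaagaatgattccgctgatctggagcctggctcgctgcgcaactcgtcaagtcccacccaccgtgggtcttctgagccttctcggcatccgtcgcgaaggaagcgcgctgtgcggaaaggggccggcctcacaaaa
Plk1 (chr7:122159185-122159484, plus strand), Cdc20 (chr4:118437294-118437593, minus strand) and Ccnb2 (chr9:70421505-70421804, minus strand) each carry CCAAT letters upstream of the start and a CHR match near it. The Anln window (chr9:22389157-22389456, minus strand) has 2 CHR matches, 1 on each strand and both after the start, and no CCAAT match. The Nuf2 (chr1:169531415-169531714, minus strand) and Pttg1 (chr11:43425932-43426231, minus strand) windows have neither. For Pttg1 the RefSeq start lies 270 bases inside the 5′ end of the gene as the deposited table places it, so sequence next to that outer end is not in the window. That distance is 18 bases or less for the other 5 windows printed.

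**Figure D1:**
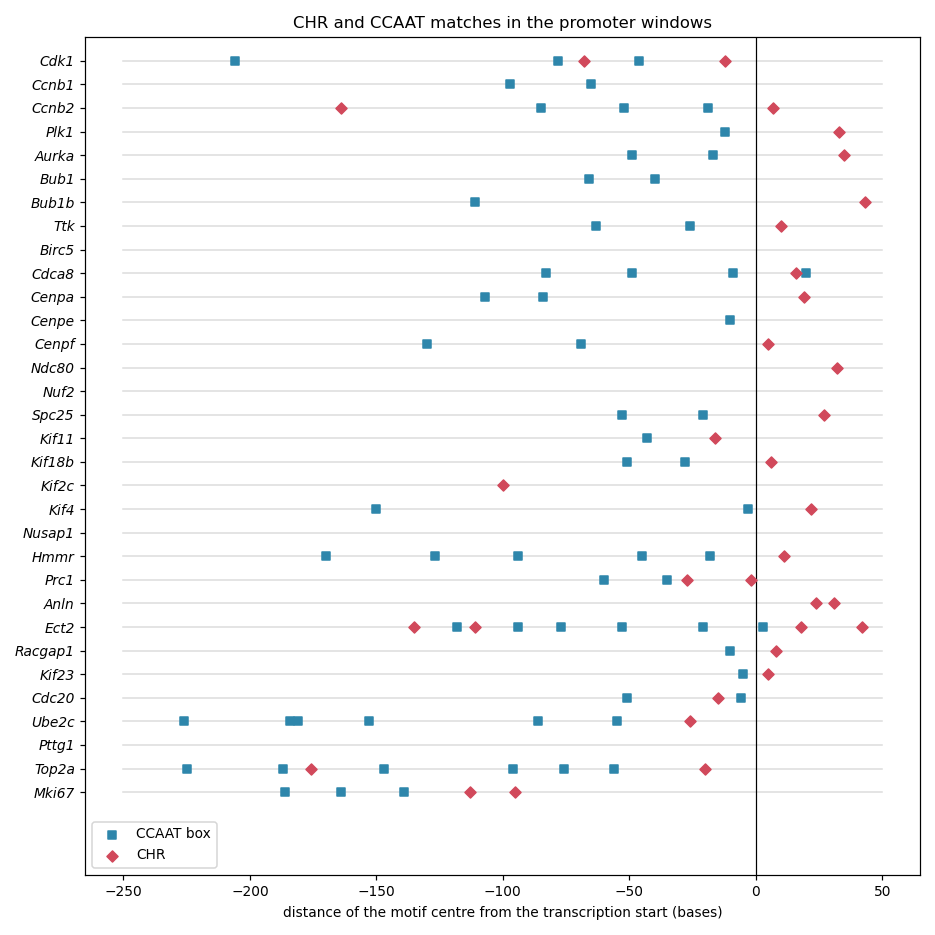
Positions of CHR (diamonds) and CCAAT (squares) matches in bases from the transcription start (x axis) for the 32 mitosis genes with a promoter window (grey lines). Prc1 and Ect2 have 2 windows, so each of their shared matches is drawn once per window. Most CHR matches sit close to the start, 27 of 31 places within 100 bases, with CCAAT matches mainly upstream of them, and the lines of Birc5, Nuf2, Nusap1 and Pttg1 are empty.

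Mitosis genes were highest in AST, lower in P0-NSC, lower again in A-iSCs and lowest in P56-NSC, and this order of group means held for 34 of the 38 (7.04% of all 15747 tested genes). The FPKM values of all 38 summed to 563 to 593 per library in AST, 173 to 223 in P0-NSC, 102 to 109 in A-iSCs and 92.3 to 99.9 in P56-NSC. Anln and Pttg1 made up 43.2% to 55.0% of the sum in P56-NSC, 17.0% to 23.2% in A-iSCs, and under 6% in AST and P0-NSC (4.56% to 5.18% and 4.22% to 4.48%). Without them, the other 36 summed to 548 ± 13.3 in AST, 191 ± 24.1 in P0-NSC, 83.4 ± 3.45 in A-iSCs and 48.5 ± 7.66 in P56-NSC (FPKM, mean ± SD, n = 3), with no overlap between groups. In 22 of the 34 genes all 12 libraries stood in this order without overlap between neighbouring groups (1.87% of all tested genes). In 22 all 3 comparisons between neighbours were called (1.44% of all), and 20 genes were in both counts (1.38% of all). The 4 genes with another order were Pttg1, Anln, Nuf2 and Kif11.

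**Figure D2:**
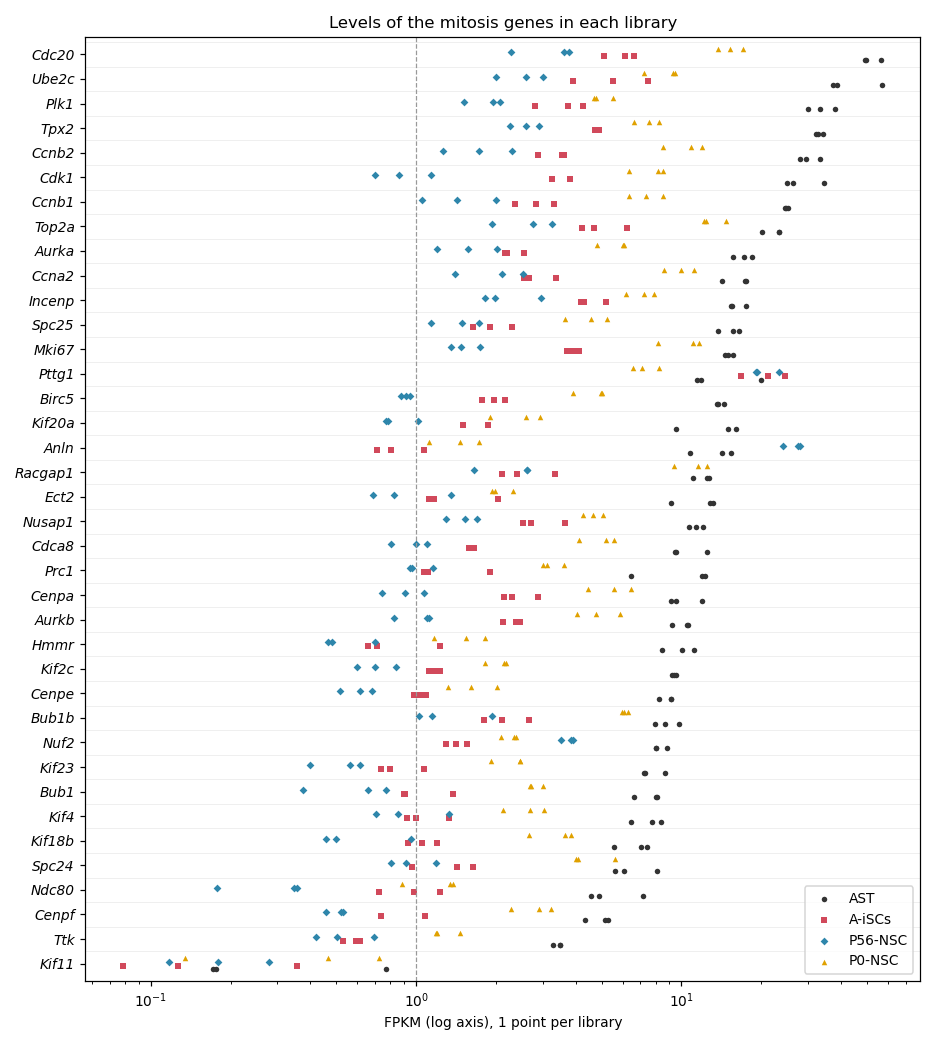
FPKM of each of the 38 mitosis genes (rows, by AST mean) on a log axis, with 1 point per library and colour and shape for the group. AST points lie to the right of the other groups in nearly every row, P56-NSC points mostly to the left, and Anln, Pttg1, Nuf2 and Kif11 break the order; the dashed line marks 1 FPKM.

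Changes were tested with limma on log2(FPKM + 1), a scale that understates the change of genes with low values, and calls were made where the p adjusted by Benjamini-Hochberg over 15747 genes was below 0.05. In A-iSCs against AST, 36 of the 37 tested mitosis genes fell and 1, Pttg1, rose. Over all tested genes 30.8% were called lower and 28.1% higher in that comparison. All 36 fell by 2-fold or more on the log2 scale, which 9.61% of all genes did. The median log2 change of the 37 was -2.17 against 0 over all genes, and the median ratio of mean FPKM was 6.93 times lower in A-iSCs. In P56-NSC against AST, 35 fell (37.0% of all genes called lower) and 2 rose (37.1% called higher), with a median of -2.54. In P0-NSC against AST, 36 fell (38.3% of all genes called lower) and 1, Racgap1, was not called, with a median of -1.41, and 24 fell by 2-fold or more (17.5% of all genes). These 3 comparisons share the AST libraries.

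**Figure D3:**
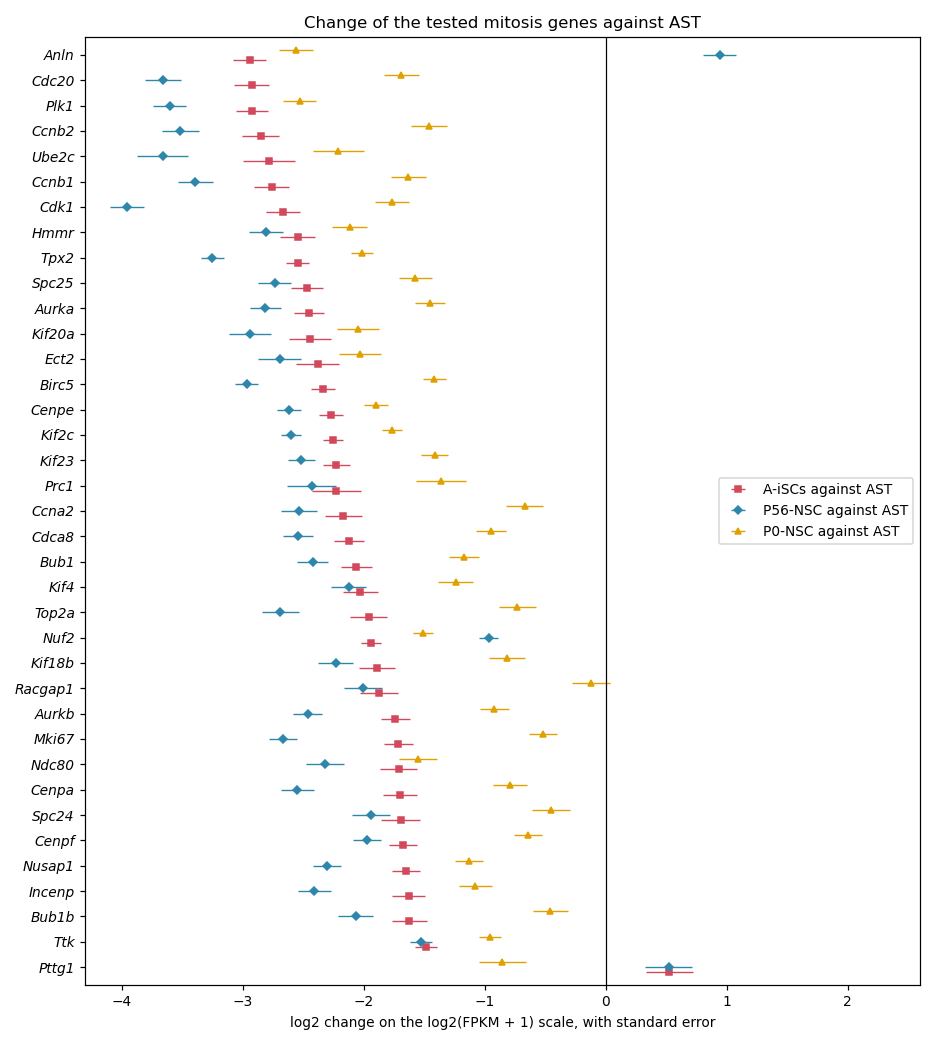
Log2 change against AST on the log2(FPKM + 1) scale with its standard error for the 37 tested mitosis genes, in A-iSCs (squares), P56-NSC (diamonds) and P0-NSC (triangles). Most points lie left of 0, P0-NSC mainly nearest to it, while Pttg1 and, in P56-NSC, Anln lie to the right and Racgap1 in P0-NSC lies at 0 within its error.

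Among the 6 cyclins and kinases of mitotic entry, all 6 fell in each group against AST, with median ratios of 8.33 times (A-iSCs), 16.9 times (P56-NSC) and 3.20 times (P0-NSC). Plk1 (chr7:122159439-122169873, GRCm38) encodes the Polo kinase of mitotic entry and spindle assembly. Its level was 33.2, 37.7 and 30.1 FPKM in the AST libraries, 5.53, 4.69 and 4.75 in P0-NSC, 4.24, 3.73 and 2.80 in A-iSCs and 1.52, 1.95 and 2.07 in P56-NSC. Every AST library stood far above the rest, and the other 3 groups did not overlap. The log2 change against AST was -2.92 ± 0.13 (SE) in A-iSCs (limma adjusted p = 7.1e-09). In P56-NSC it was -3.60 ± 0.13 (adjusted p = 2.4e-10), and P0-NSC gave -2.53 ± 0.13 (adjusted p = 7.2e-09). Cdk1 encodes the kinase at the centre of mitotic entry. It read 26.40, 34.40 and 25.05 FPKM in AST, 8.54, 6.33 and 8.19 in P0-NSC, 3.80, 3.79 and 3.27 in A-iSCs and 0.70, 1.14 and 0.86 in P56-NSC. Its groups did not overlap, and its ratio of 31.8 times lower in P56-NSC than in AST was the largest among the 37. Its cyclin partners Ccnb1 and Ccnb2 were 8.76 and 9.08 times lower in A-iSCs than in AST, and Ccna2, which acts from S phase into early mitosis, 5.72 times. Ccnb1 has processed pseudogenes that match it over more than 1 kb, the closest being Ccnb1-ps at 99.2% identity and 2.15 FPKM in AST, so its reads may be shared with them. Aurka, the Aurora kinase of the centrosome, was 7.41 times lower in A-iSCs.

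The 3 spindle checkpoint kinases Bub1, Bub1b (BubR1) and Ttk (Mps1) fell in each group against AST. Bub1 was 7.13 times lower in A-iSCs, 12.6 times in P56-NSC and 2.70 times in P0-NSC. Bub1b read 9.77, 7.95 and 8.69 FPKM in AST and 5.96, 6.32 and 6.10 in P0-NSC, so the 2 groups stood close together without overlap. Its change there, -0.46 ± 0.14 (limma adjusted p = 0.013), was no longer called in 4 of 22 alternative analyses, among them scaling by total reads (-0.203, adjusted p = 0.205). Ttk, the lowest tested member in AST, had 3.42 ± 0.11 FPKM there and 0.58 ± 0.04 in A-iSCs (SD, n = 3).

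The chromosomal passenger complex corrects wrong attachments through Aurora B (Aurkb) and its partners survivin (Birc5), borealin (Cdca8) and Incenp. All 4 fell in each group against AST, by 3.54 to 7.11 times in A-iSCs, 7.14 to 15.3 times in P56-NSC and 2.06 to 3.01 times in P0-NSC. Birc5 had little spread: 13.6, 14.5 and 13.7 FPKM in AST, 5.00, 3.91 and 4.98 in P0-NSC, 2.16, 1.97 and 1.77 in A-iSCs and 0.91, 0.95 and 0.87 in P56-NSC. Those 4 groups did not overlap. Incenp, the scaffold, had the smallest ratio of the 4 in A-iSCs.

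All 7 centromere and kinetochore genes fell in each group against AST. Cenpa, the centromeric histone, was 4.18 times lower in A-iSCs and 1.86 times in P0-NSC, and the kinetochore motor Cenpe 8.53 and 5.35 times. Ndc80, Nuf2, Spc24 and Spc25 are the 4 subunits of the NDC80 complex, which binds kinetochores to microtubules. Nuf2 alone of the 4 was not lowest in P56-NSC. Ndc80 read 4.56, 7.17 and 4.89 FPKM in AST and 0.35, 0.35 and 0.18 in P56-NSC, the last from 19 reads, the fewest of any tested member in a library. Nuf2 (chr1:169497934-169531464), its direct partner, read 8.03, 8.81 and 8.05 FPKM in AST, 3.51, 3.85 and 3.90 in P56-NSC, 2.39, 2.09 and 2.34 in P0-NSC and 1.55, 1.42 and 1.30 in A-iSCs. P56-NSC was thus second to AST, with no overlap between the 4 groups. The ratio of Nuf2 to Ndc80 FPKM within a library ran from 9.88 to 21.9 in P56-NSC and from 1.23 to 2.35 in the other 9 libraries, and that of Nuf2 to Spc25 from 2.24 to 3.08 against 0.454 to 0.868 (these ratios were chosen after the values were seen and have no test). The log2 change of Nuf2 in P56-NSC against P0-NSC was 0.54 ± 0.08 (limma adjusted p = 9.9e-05). This call ended with scaling by total reads (0.07, adjusted p = 0.46) and with voom on recovered reads (0.10, adjusted p = 0.44). It was lower in A-iSCs than in P56-NSC (-0.97 ± 0.08, adjusted p = 6.9e-07) under every alternative. Ndc80 shares a stretch of 303 bases at 95.1% identity with 2700099C18Rik, at 3.11 FPKM in AST. Spc24 was 4.91 times lower in A-iSCs than in AST and Spc25 7.85 times.

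Of the 4 spindle motors, Kif2c (a microtubule depolymerase), Kif4 (the chromokinesin) and Kif18b fell in each group against AST, by 8.0, 6.93 and 6.29 times in A-iSCs. Kif11 (chr19:37376403-37421859), the bipolar kinesin-5 that pushes spindle poles apart, was below 1 FPKM in every library and was not tested. It read 0.18, 0.17 and 0.77 FPKM in AST, 0.13, 0.08 and 0.35 in A-iSCs, 0.28, 0.12 and 0.18 in P56-NSC. The P0-NSC libraries read 0.13, 0.73 and 0.47. The groups overlapped in every pair, and with no filter on low values no comparison called it (limma adjusted p = 0.30 to 1). All 4 spindle and microtubule binding genes fell in each group against AST. Tpx2, which activates Aurora A on the spindle, had 33.0 ± 1.0 FPKM in AST and 4.83 ± 0.09 in A-iSCs (SD, n = 3), 6.84 times lower. Hmmr was 11.4 times lower in A-iSCs, 18.0 times in P56-NSC and 6.55 times in P0-NSC. Prc1, the cross-linker of the midzone, read 12.3, 6.46 and 11.96 FPKM in AST, the widest spread of any tested member in that group on the log2(FPKM + 1) scale.

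Of the 5 cytokinesis genes all fell in A-iSCs against AST, 4 in P56-NSC and 4 in P0-NSC. Anln (chr9:22332012-22389188) encodes anillin, the scaffold of the contractile ring. Its level was 14.2, 10.8 and 15.3 FPKM in AST, 0.80, 0.71 and 1.07 in A-iSCs, 27.9, 24.1 and 27.4 in P56-NSC. The P0-NSC libraries read 1.73, 1.12 and 1.47. P56-NSC was the highest group and A-iSCs the lowest, with no overlap between any 2 groups. Anln fell 15.6 times in A-iSCs against AST, the largest ratio in that comparison (-2.94 ± 0.14, limma adjusted p = 8.4e-09). It rose in P56-NSC against AST (0.94 ± 0.14, adjusted p = 5.7e-05) and was 18.4 times higher there than in P0-NSC. The summed level of 9 oligodendrocyte lineage markers was also high in P56-NSC, 5602 to 6529 FPKM against 57.8 to 175 in the other 9 libraries, with all 9 markers called higher in P56-NSC than in each other group and Mobp at 0 in all 3 AST libraries. Their part in the Anln result was not tested. Within a library, the ratio of Anln to Ect2, the exchange factor that activates RhoA at the cell equator, was 17.8 to 39.9 in P56-NSC and 0.524 to 1.20 in the other libraries (a ratio chosen after the values were seen).

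Racgap1 (chr15:99620496-99651656), the GTPase-activating subunit of centralspindlin, read 12.8, 11.1 and 12.5 FPKM in AST and 12.5, 9.36 and 11.5 in P0-NSC, and these 2 groups overlapped. Its change there was -0.12 ± 0.16 (limma adjusted p = 0.51), and its sign turned with the scaling (0.05 with quantile normalization, 0.15 with total reads). It fell in A-iSCs (2.40, 2.12 and 3.33 FPKM) and P56-NSC (2.62, 2.62 and 1.65), which overlapped each other. Kif23, the motor subunit of the same complex, had 7.73 ± 0.81 FPKM in AST and 2.28 ± 0.32 in P0-NSC (SD, n = 3), 3.39 times lower; the difference between the 2 subunits was not tested. A processed pseudogene, AC148020.1, matches Racgap1 over 488 bases at 98.2% identity and had 0.65 FPKM in AST and 0.55 in P0-NSC. Ect2 and Kif20a were 8.09 and 8.35 times lower in A-iSCs than in AST. The kit does not mark strand. Since 29.3% of the Kif20a exon bases lie opposite exons of Cdc23, reads of these 2 genes cannot be told apart there. Other members have such overlaps too, among them Ube2c with Tnnc2 (22.8%), Kif4 with Pdzd11 (15.1%), Ccna2 with Exosc9 (12.5%) and Prc1 with Rccd1 (11.1%). Tnnc2 was at 0 FPKM in AST, whereas Pdzd11 had 36.6 FPKM there and Kif4 7.53.

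Of the 3 partners of the anaphase-promoting complex, its activator Cdc20 and its ubiquitin-conjugating enzyme Ube2c were the 2 members with the highest AST means, and both fell in each group. Cdc20 read 49.6, 56.3 and 49.0 FPKM in AST, 17.1, 13.8 and 15.2 in P0-NSC, 5.10, 6.60 and 6.13 in A-iSCs and 3.61, 3.77 and 2.28 in P56-NSC. The groups did not overlap. Ube2c was 7.88 times lower in A-iSCs than in AST. Pttg1 (chr11:43420250-43426251) encodes securin, the inhibitor of separase that this complex destroys at anaphase. It read 11.8, 19.95 and 11.5 FPKM in AST, 24.5, 21.2 and 16.7 in A-iSCs, 19.3, 19.1 and 23.3 in P56-NSC. The P0-NSC libraries read 8.26, 6.56 and 7.10. Only P0-NSC stood apart, below the rest, while the other 3 groups overlapped. Pttg1 was called higher in A-iSCs than in AST (0.53 ± 0.20, limma adjusted p = 0.036) and in P56-NSC than in AST (0.52 ± 0.20, adjusted p = 0.030), and these calls were lost in 7 and 8 of 22 alternatives. Without AST 1 the changes were 0.42 (adjusted p = 0.13) and 0.41 (0.11), and without AST 3 they were 0.40 (0.14) and 0.39 (0.12). Without A-iSCs 1 the first was 0.41 (0.13), without A-iSCs 2 it was 0.51 (0.085), and without P56-NSC 3 the second was 0.43 (0.10). Pttg1 was higher in A-iSCs than in P0-NSC (1.38 ± 0.20, adjusted p = 5.4e-05) under every alternative. Within their groups, AST 2, A-iSCs 1 and A-iSCs 2 held more reads of short genes, and Pttg1 (2000 bases) was highest in AST 2 and in A-iSCs 1. With gene length trends within groups removed, both calls against AST held. The changes were 0.53 (limma adjusted p = 0.012) in A-iSCs and 0.52 (0.0093) in P56-NSC. Both calls also held with quantile normalization, at 0.72 (0.0062) and 0.63 (0.0093). With AST 2, A-iSCs 1 and A-iSCs 2 as the only libraries of their groups, the change against AST was 0.18 (adjusted p = 0.36) in A-iSCs and 0.04 (0.84) in P56-NSC. With AST 1, AST 3 and A-iSCs 3 alone of those groups it was 0.49 (0.020) and 0.76 (0.00018). With scaling by total reads the change in P56-NSC was 0.20 (0.36), and with voom 0.20 (0.37).

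**Figure D4:**
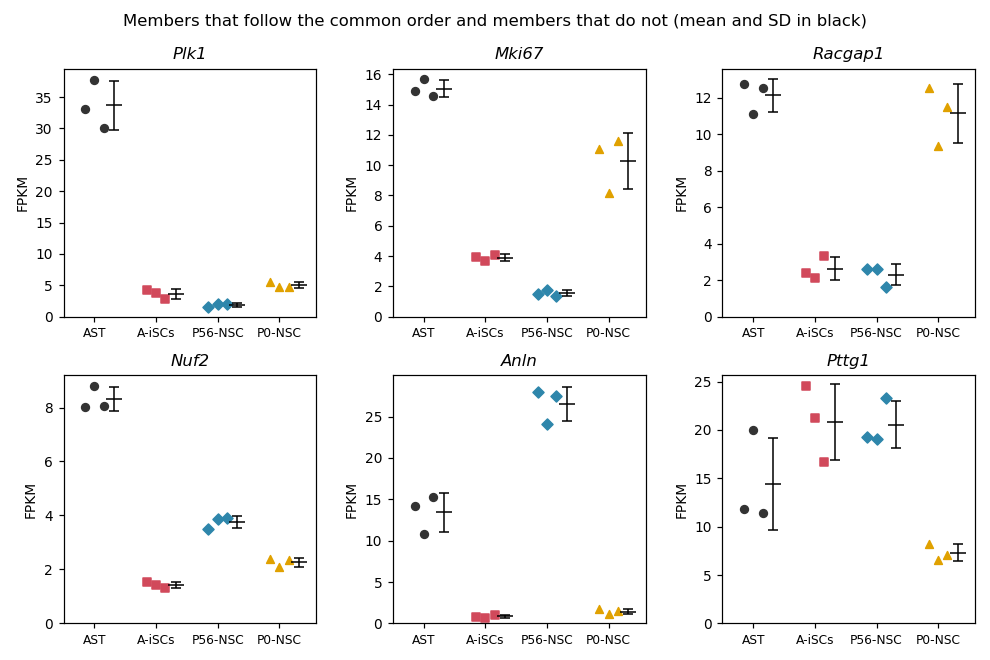
FPKM per library (y axis, from 0) in the 4 groups (x axis) for 6 mitosis genes, with group mean and SD in black. Plk1 and Mki67 follow the common order, with P0-NSC 1.46 times below AST for Mki67 and 6.75 times for Plk1. Racgap1 is level in AST and P0-NSC. Anln is highest in P56-NSC, Nuf2 in P56-NSC is below AST and above P0-NSC and A-iSCs, and Pttg1 is lowest in P0-NSC.

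Both chromosome structure genes, Top2a (topoisomerase II alpha) and Mki67 (the Ki-67 surfactant of mitotic chromosomes), fell in each group against AST. Mki67 read 14.9, 15.7 and 14.6 FPKM in AST, 11.1, 8.19 and 11.6 in P0-NSC, 3.91, 3.69 and 4.10 in A-iSCs and 1.48, 1.75 and 1.36 in P56-NSC. The groups did not overlap, and P0-NSC was 1.46 times below AST, where Plk1 was 6.75 times below. The log2 change of Mki67 in P0-NSC against AST was -0.52 ± 0.12 (limma adjusted p = 0.0016), and that call ended with scaling by total reads (-0.253, adjusted p = 0.060). Within a library, the ratio of Plk1 to Mki67 FPKM was 2.23 ± 0.17 in AST, 1.223 ± 0.27 in P56-NSC, 0.93 ± 0.21 in A-iSCs and 0.49 ± 0.08 in P0-NSC (SD, n = 3). Every AST library (2.07 to 2.41) stood above all others and every P0-NSC library (0.409 to 0.572) below. A ratio within a library does not depend on the scaling between libraries, and this one was chosen after the values were seen and has no test. In P0-NSC against AST the members ranged from Anln, Plk1, Hmmr, Ect2, Kif20a and Cenpe, at 9.34, 6.75, 6.55, 5.63, 5.48 and 5.35 times lower, to Top2a, Ccna2, Mki67, Spc24, Bub1b and Racgap1, at 1.71, 1.65, 1.46, 1.45, 1.44 and 1.09 times. The call for Spc24 there (-0.45 ± 0.16, adjusted p = 0.022) was lost in 7 of 22 alternatives.

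Between the spheres and the brain-derived groups, most mitosis genes were higher in A-iSCs than in P56-NSC and lower than in P0-NSC. In A-iSCs against P56-NSC, 24 of 37 were higher, 2 were lower (Anln and Nuf2) and 11 were not called, against 31.5% of all genes called higher and 31.3% lower. The median log2 change was 0.37 and the median ratio 1.69. On the log2(FPKM + 1) scale Cdk1 differed most upward (1.29 ± 0.14, limma adjusted p = 7.2e-06, 4.02 times), followed by Mki67 (0.96 ± 0.12, 1.8e-05, 2.55 times). By the ratio of mean FPKM, Ndc80 (3.34 times) and Cenpa (2.68 times) stood between them. The 11 not called were Pttg1, Ccna2, Racgap1, Spc25, Ect2, Prc1, Spc24, Hmmr, Kif4, Kif18b and Ttk. Over 22 alternatives 18 to 35 were called higher, and 2, Anln and Nuf2, were called lower in each. With scaling by total reads 34 were higher, but all genes shifted as well, by 0.40 at the median, and 73.4% of called genes were then higher against 50.1%. The members' median log2 change of 0.37 became 0.56 with quantile normalization, 0.70 with a pseudocount of 0.1, 0.71 with total reads and 1.35 with voom on recovered reads. Relative to the median gene it was 0.33 above, and 0.42 with quantile normalization, 0.27 with total reads and 0.75 with voom.

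In A-iSCs against P0-NSC, 33 of 37 were lower (34.7% of all genes called lower), 1 was higher (Pttg1, 32.6% of all genes called higher) and Kif20a, Ect2 and Ndc80 were not called. The median ratio was 2.31 times lower, with Racgap1 at 4.26 times (-1.75 ± 0.16, limma adjusted p = 1.1e-06). Plk1 was 1.39 times lower (-0.39 ± 0.13, adjusted p = 0.021), a call lost in 4 of 22 alternatives. In P56-NSC against P0-NSC, 34 were lower (33.9% of all genes called lower) and Pttg1, Anln and Nuf2 were higher (35.3% called higher), with a median ratio of 4.12 times lower and 8.55 times for Cdk1. The median log2 change there was -1.33, and -2.68 with voom.

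**Figure D5:**
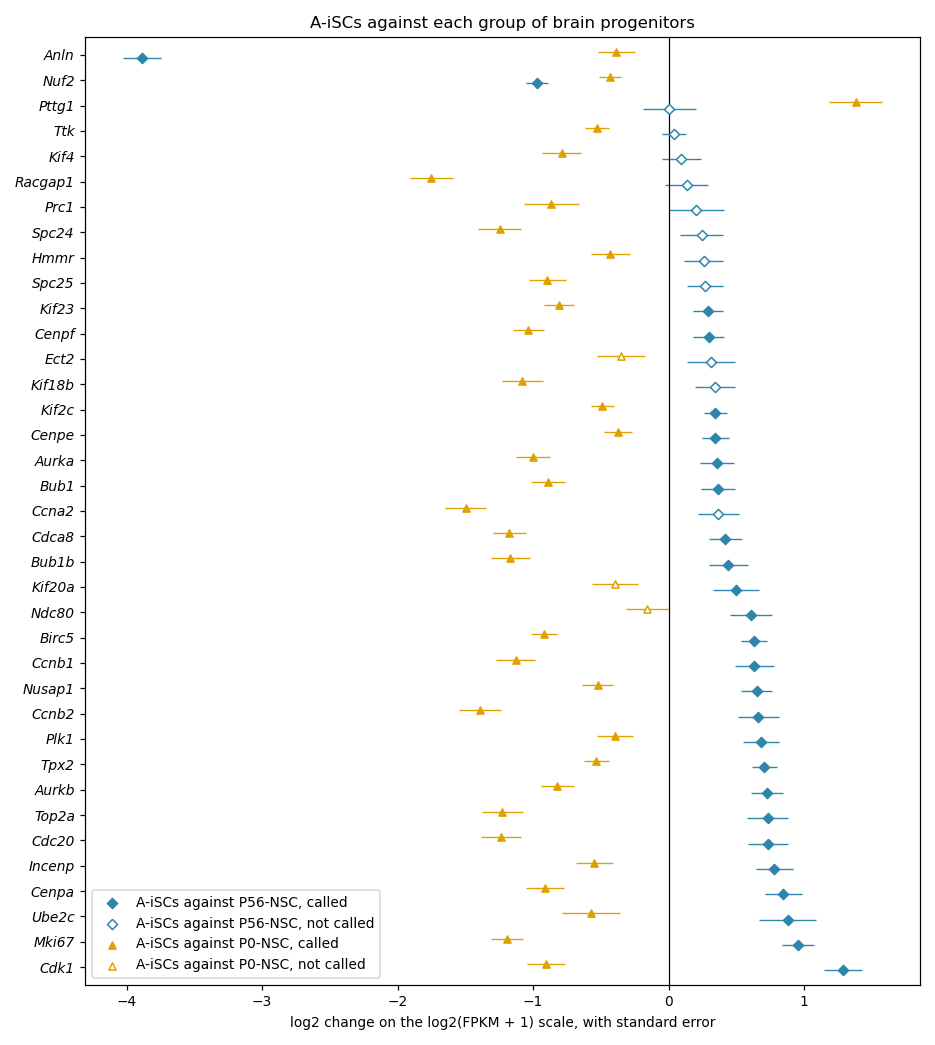
Log2 change with its standard error of the 37 tested mitosis genes in A-iSCs against P56-NSC (diamonds) and against P0-NSC (triangles), on the log2(FPKM + 1) scale. Filled symbols were called and open ones were not; most genes lie right of 0 against P56-NSC and left of 0 against P0-NSC, with Anln far to the left against P56-NSC and Pttg1 to the right against P0-NSC.

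Other genes of the same machinery, taken from lists that hold none of the 38, were also called lower more often than higher against AST. In A-iSCs against AST, 13 of 14 tested mitotic entry regulators were lower and 0 higher, and 30 of 34 other kinetochore and checkpoint genes were lower and 0 higher, beside 30.8% of all genes called lower and 28.1% higher. Among other spindle genes 21 of 25 were lower and 1 higher, among abscission genes 8 of 12 were lower and 0 higher, and among subunits of the anaphase-promoting complex 9 of 16 were lower and 0 higher. Condensin, cohesin and separase genes had 13 of 21 lower and 1 higher, and transcription factors of cell cycle genes 14 of 22 lower and 2 higher. The largest falls on the log2(FPKM + 1) scale were Gtse1 (a regulator of p53 and of microtubules in G2), from 38.02 ± 2.87 to 5.50 ± 1.27 FPKM, and Ckap2 (a spindle protein), from 40.6 ± 1.88 to 6.00 ± 0.33 (SD, n = 3). Cep55, which recruits the abscission machinery, fell from 10.8 ± 0.97 to 1.05 ± 0.18. Foxm1, the transcription factor of late cell cycle genes, fell from 10.2 ± 1.21 to 1.66 ± 0.18 (-2.07 ± 0.16, limma adjusted p = 3.7e-07). Rbl2 (p130), the pocket protein of the repressor complex that assembles in resting cells, rose from 2.73 ± 0.18 to 7.83 ± 2.59 FPKM (1.20 ± 0.15, adjusted p = 3.6e-05). In P56-NSC, Foxm1 was at 1.42 ± 0.52 and Rbl2 at 12.5 ± 0.50 FPKM, called lower and higher than in AST.

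In P0-NSC against AST, 11 of 14 mitotic entry regulators were lower and 3 higher, 27 of 34 other kinetochore and checkpoint genes were lower and 2 higher, and 20 of 25 other spindle genes were lower and 1 higher, beside 38.3% of all genes called lower and 35.9% higher. Abscission genes had 8 of 12 lower and 1 higher, and subunits of the anaphase-promoting complex 10 of 16 lower and 3 higher. Condensin, cohesin and separase genes had 10 of 21 lower and 3 higher, and transcription factors of cell cycle genes 15 of 22 lower and 2 higher. Hjurp, the chaperone that loads CENP-A, was higher in P0-NSC (14.2 ± 0.16 against 8.45 ± 1.52 FPKM), and Cdc25b, the phosphatase that activates CDK1, as well (6.94 ± 0.11 against 3.67 ± 0.19). Mis12, a kinetochore protein, was lower in P0-NSC than in AST (2.32 ± 0.26 against 15.4 ± 0.91) and also lower than in A-iSCs (10.4 ± 0.18), opposite in the latter comparison to most mitosis genes. In P56-NSC against P0-NSC all 14 tested mitotic entry regulators were lower. Of the 12 abscission genes 5 were lower and 4 higher, near the 33.9% and 35.3% of all genes, with citron kinase (Cit) at 4.50 ± 1.85 FPKM in P56-NSC and 0.77 ± 0.09 in P0-NSC.

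Reads recovered per library numbered 17077780 to 24452419. Per 1 kb of gene, 1 read equals 0.0343 to 0.0623 FPKM, and each tested mitosis gene had at least 59 reads per library outside P56-NSC. Values other than the mitosis genes also differed between groups. The 9 astrocyte markers summed to 159 to 180 FPKM in AST, 1249 to 2524 in A-iSCs, 2869 to 3113 in P56-NSC and 256 to 319 in P0-NSC, and each had a mean of 1 FPKM or more in AST. The 9 stem and progenitor markers summed to 2608 to 3580 in AST, 1578 to 2112 in A-iSCs, 902 to 985 in P0-NSC and 246 to 271 in P56-NSC, so the lowest sum was in a group labelled NSC. Most of the AST sum came from Vim (mean 2186 FPKM). Against AST, 4 of these 9 were called higher and 2 lower in A-iSCs, 6 and 3 in P0-NSC, and 3 and 6 in P56-NSC. The 10 microglia and macrophage markers summed to 3202 to 4293 in A-iSCs and 150 to 1013 in the other libraries. Of these 10, 7 were called higher and 2 lower in A-iSCs than in P56-NSC. P2ry12 and Tmem119 had means of 7.30 and 16.8 FPKM in A-iSCs and 60.2 and 52.2 in P56-NSC. Neuron markers summed to 916 to 1104 in P0-NSC against 50.6 to 242 elsewhere, and Tubb3 (mean 634 FPKM) made up most of that P0-NSC sum. Compared with P0-NSC, the P56-NSC group had 5 of the 8 neuron markers called lower and 2 called higher. Map2 averaged 71.1 FPKM for P56-NSC against 41.7 for P0-NSC, and Snap25 averaged 33.7 against 14.9. Endothelial markers summed to 82.3 to 87.6 in P0-NSC against 1.68 to 8.89 elsewhere. Fibroblast and mural markers summed to 1867 to 2254 in AST against 13.2 to 110 elsewhere. That AST sum came mostly from Acta2 (mean 1848.1 FPKM) and Col1a1 (157.7 FPKM). Rgs5, Dcn and Lum had means below 1 FPKM in AST and were highest in P0-NSC. Of these 6 markers, 3 were called higher and 2 lower in P0-NSC than in AST. Ependymal markers summed to 197 to 271 in P56-NSC against 50.5 to 127 elsewhere. Red blood cell markers summed to 360 to 565 in P56-NSC and 163 to 338 in P0-NSC but 0.55 or less in AST and A-iSCs, where Hbb-bt was at 0. Reads of the mitochondrial genome took 16.5% to 17.6% in P56-NSC and 2.94% to 7.03% elsewhere. The part of these other cell types and of the mitochondrial reads in the differences of mitosis genes between groups was not tested.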

How the data were processed

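RNA of 12 mouse brain cell libraries (3 per group, groups and numbers from the sample titles) was sequenced; per the labels' protocols the kit was one without strand marks. The authors deposited 1 table of normalized values per gene and library. Its header names no unit. Multiplied by the deposited gene length, 100% of the values came out as whole multiples of a step fitted to each library (tolerance 0.01). These multiples are taken as reads, and the deposited values are read as FPKM. Any unit that divides reads by gene length and by a constant per library would pass this check, so it does not settle the unit. The submitters' processing notes list Bowtie 0.12.2 with builds mm8, mm9, while the table's coordinates match GENCODE M21 on GRCm38 for 54985 of 55240 shared identifiers (99.5%) and all 38 mitosis genes. For the counting tool, no name is given in the sources used here. Recovered reads numbered 17077780 to 24452419 per library, and 441 entries without a name (0.0957% to 0.156% of reads) stayed out of the tests. If the values are FPKM, the totals implied by them are 0.744 to 1.218 times these sums, so they were not scaled by these sums alone.

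Tests ran on log2(FPKM + 1) in limma (version 3.58.1, R 4.3.3; trended empirical Bayes, checked on simulated data), with 1 fit of all 12 libraries, no covariate and 6 comparisons. They covered 15747 genes, those that reached 1 FPKM in 3 libraries or more. Tables used Python 3.11.15 with pandas 2.3.3. Limits by depth cover counting error only. All 38 mitosis genes and, from each related list, the called genes of largest rise and fall could be named, and fewer are named here. The members and lists were chosen with earlier results of these data known. Near copies were searched with blastn (at least 95% identity over 200 bases). The 22 alternatives covered pseudocount, filter, scaling, voom on recovered reads, gene length trends within groups, a replicate block, the 2 groups alone and left-out libraries. Replicate libraries all differed by more than counting noise. Between libraries of equal replicate number, 0 of 6 pairs of groups had all correlations of deviations over 0.1. That check cannot show whether libraries were paired, since the deviations also followed gene length.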

Additional observations from a re-analysis of the deposited data

How the results depend on the processing

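No count of called mitosis genes moved by more than 1.5 times under 22 alternatives. The counts ran from 36 to 37 in A-iSCs against AST, 36 to 37 in P56-NSC against AST, 33 to 36 in P0-NSC against AST, 20 to 37 in A-iSCs against P56-NSC, 30 to 35 in A-iSCs against P0-NSC and 36 to 37 in P56-NSC against P0-NSC. The median log2 change of the mitosis genes kept its sign in all 132 results and moved beyond the spread between libraries in 20. It moved by over 1.5 times in A-iSCs against P56-NSC (0.37, against 0.56 with quantile normalization, 0.70 with pseudocount 0.1, 0.71 with total reads and 1.35 with voom) and in P56-NSC against P0-NSC (-1.33, against -2.68 with voom). Of single results (gene, comparison and alternative), 4731 kept direction and call, 90 lost and 50 gained the call, and 13 turned sign. None of the 13 was called in either direction, and the cause was not tested. For Racgap1 in P0-NSC against AST the log2 change was 0.05 with quantile normalization, 0.15 with total reads and 0.16 with voom. In A-iSCs against P56-NSC, leaving out 1 library gave Ttk -0.016 to 0.11, Kif4 -0.001667 to 0.22, Racgap1 -0.017 to 0.23 and Pttg1 -0.12 to 0.15. There, Racgap1 was -0.004007 with AST 2, A-iSCs 1 and A-iSCs 2 alone of those groups, and Pttg1 was -0.28 with AST 1, AST 3 and A-iSCs 3 alone. The replicate block left 37, 37, 36, 25, 34 and 37 calls in the same order of comparisons; the call it ended was Kif23 in A-iSCs against P56-NSC (adjusted p = 0.052). What a shared replicate number stands for is not given in the labels. Correlations of same-numbered deviations from the group mean ran from -0.39 to 0.44. Those deviations also followed gene length (rank correlations of -0.45 to 0.39 over the libraries), so they cannot show whether libraries were paired. With total reads, the median of all genes moved by 0.12 in A-iSCs against AST, -0.24 in P56-NSC against AST, 0.20 in P0-NSC against AST, 0.40 in A-iSCs against P56-NSC and -0.45 in P56-NSC against P0-NSC, and the higher part of all calls went from 47.7% to 61.0%, 50.1% to 38.7%, 48.4% to 58.8%, 50.1% to 73.4% and 51.0% to 27.3%. Depth limits P56-NSC most: 27 of 37 genes had 50 reads or more in each of its libraries.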
